A study of Mus musculus with 4 samples.

Results

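From the 14405 genes in the deposited expression matrix of mouse dorsal root ganglia, a chosen set of 10 that make or sense prostaglandins is described here. These are the synthase genes Ptgds, Hpgds, Ptges, Ptgis, Ptgs1 and Ptgs2 and the receptor genes Ptgdr, Ptger3, Ptger4 and Ptgir, each found by its symbol. The set was chosen by function, but with the mutant and wild type FPKM of these samples already known, the low Ptgds of the mutants above all. The values below therefore describe the members, and no test of them is given. RNA was sequenced in bulk from ganglia of 10 week old mice of mixed strain, in 2 mutant and 2 wild type samples. The mutants were labelled Prdm12-/Fl; AvilCreERT2/+, that is with a null and a floxed allele of the transcription factor gene Prdm12 and the Cre recombinase CreERT2, which tamoxifen switches on, under control of Avil, a gene of sensory neurons. The controls were labelled wild type, with no further allele named. The null allele is present in every cell of a mutant, whereas the Cre acts where Avil is expressed. Sex, the number of animals in a sample and tamoxifen dosing are not given in the labels.

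Prostaglandins are lipid mediators made in steps. Phospholipases free arachidonic acid, the cyclooxygenases encoded by Ptgs1 and Ptgs2 turn it into prostaglandin H, and terminal synthases turn that into prostaglandin D, E or prostacyclin. In sensory ganglia, prostaglandin E and prostacyclin are known for sensitising pain-sensing neurons through their receptors, while lipocalin-type prostaglandin D synthase, the product of Ptgds, is also a carrier of retinoids and other lipids and is abundant in the leptomeninges, the inner membranes around the nervous system.

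Values are FPKM, read fragments scaled for transcript length and for the size of the library, so that levels of different genes can be set side by side. FPKM totals ran from 629900 to 686830 in the mutants and from 620018 to 674082 in the wild types, and the number of reads is unknown. Prdm12, the targeted gene, averaged 1.27 ± 0.313 FPKM in the mutants and 9.13 ± 2.19 FPKM in the wild types (SD, n = 2 each) without overlap, and Avil was at 102 and 164 FPKM in the mutants and 78.4 and 124 FPKM in the wild types. Sensory neuron markers were present throughout, with the neuronal hydrolase gene Uchl1 at 1593 FPKM at the lowest. The Y-linked gene Eif2s3y was at 24.7 and 23.2 FPKM in the mutants, while wild type 1 had 21.3 FPKM and wild type 2 had 0.0252 FPKM. Xist was at 21.1 FPKM in wild type 2 and under 0.03 FPKM in the other samples. Wild type 2 thus differed from the other libraries in these sex-linked transcripts. Skeletal muscle markers summed to 106 FPKM in mutant 1 and 4091 FPKM in mutant 2, and to 244 FPKM in wild type 1 and 1965 FPKM in wild type 2. Adipocyte markers summed to 270 FPKM in mutant 1 and 2276 FPKM in mutant 2, and to 464 and 741 FPKM in wild type 1 and 2.

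**Figure D1:**
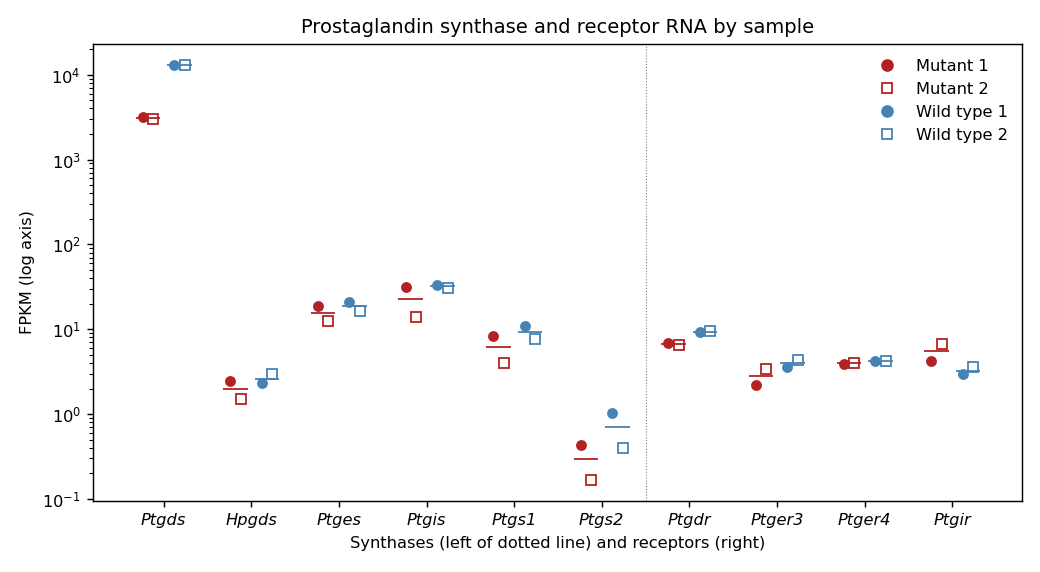
FPKM of each synthase and receptor gene in each sample on a log axis, mutants left of wild types, with group means as short lines. Ptgds stood apart from the other genes in level and between the groups, whereas the other 5 synthase genes overlapped between them.

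Ptgds had 3201 and 3025 FPKM in the mutants, against 13098 and 13055 FPKM in the wild types. Within each genotype its values lay close together, and the groups were far apart. The means were 3113 ± 124 FPKM in the mutants and 13077 ± 30.8 FPKM in the wild types (SD, n = 2 each), 4.20-fold lower in the mutants. On the scale of log2(FPKM + 1), mutant minus wild type, this was a difference of -2.07 (standard error 0.165, 95% interval -2.49 to -1.66). Such intervals describe each member and are no test of it, since this contrast helped to choose the members. The wild type samples had near equal Ptgds and differed in Xist and Eif2s3y and in muscle markers. The part of sex or muscle in the Ptgds values was not tested. In the authors' deposited table of 150 genes, Ptgds was the member listed, with a log2 fold change of -2.07 and q = 0.00742. That q is the smallest there and is shared by 103 of the 150 genes. With 1 sample left out at a time, the ratio of mutant to wild type mean stayed between 0.231 and 0.245. In bulk RNA, fewer cells of a type and less RNA per cell cannot be told apart, here and in the results that follow.

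Ptgds took 0.508% and 0.440% of all FPKM in the mutants, against 2.11% and 1.94% in the wild types. It ranked 13 and 14 among all genes in mutant 1 and 2, below genes such as Tmsb4x (5963 FPKM in mutant 1), and ranked 1 in each wild type sample. The difference of -9964 FPKM between group means was the most negative among the 14040 genes tested, those whose mean reached 1 FPKM in a group, and made up 25.9% of the summed FPKM differences of all genes with a lower mutant mean. The lipocalin gene Apod came next, with a difference of -1276 FPKM. By log2 difference, Ptgds ranked 8 from the most negative over all 14040 tested genes. Among the 1071 genes whose mean reached 100 FPKM in a group, Ptgds had the most negative log2 difference, followed by Nnat at -1.80.

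Hpgds encodes the haematopoietic prostaglandin D synthase, which catalyses the same step as the Ptgds product and is found in mast cells and macrophages. It had 2.46 and 1.49 FPKM in the mutants, against 2.30 and 2.93 FPKM in the wild types, and the groups overlapped. Its log2 difference was -0.29 (standard error 0.223), and -0.05 without mutant 2 or -0.53 without mutant 1. Ptgds RNA exceeded Hpgds RNA 1299-fold and 2029-fold in the mutants, and 5700-fold and 4458-fold in the wild types. Mast cell markers were lowest in mutant 2, and 5 of the 9 were lower in both mutants without overlap (Cpa3, Tpsab1, Kit, Ms4a2 and Fcer1a), none past the limma adjusted threshold. Their 9 listed genes summed to 392 and 125 FPKM in the mutants, against 378 and 464 FPKM in the wild types, with the mast cell protease gene Mcpt4 at 120 and 39.2 FPKM in the mutants and 115 and 148 FPKM in the wild types and the tryptase gene Tpsb2 at 115 and 30.8 FPKM in the mutants and 103 and 116 FPKM in the wild types. Hpgds was likewise lowest in mutant 2. The part of mast cells in the Hpgds values was not tested.

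The starts of these prostaglandin D genes are shown because Ptgds and the receptor gene Ptgdr were lower in both mutants and Hpgds was not. Each run is 250 bases before to 50 bases after the start in RefSeq on GRCm38.p6, written along the gene's strand. Ptgds lies at chr2:25469700-25469999, Hpgds at chr6:65144681-65144980 and Ptgdr at chr14:44859326-44859625, each on the minus strand. Capitals mark the E-box letters CANNTG, which read the same on both strands, and the TATA-like letters ATAAA where they lie on the gene's strand within bases -40 to -20.
Ptgds: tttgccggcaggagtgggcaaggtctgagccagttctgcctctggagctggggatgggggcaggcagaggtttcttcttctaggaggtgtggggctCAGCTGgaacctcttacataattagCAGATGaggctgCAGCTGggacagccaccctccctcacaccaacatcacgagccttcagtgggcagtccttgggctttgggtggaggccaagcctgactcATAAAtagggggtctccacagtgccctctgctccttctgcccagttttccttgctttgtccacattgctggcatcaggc
Hpgds: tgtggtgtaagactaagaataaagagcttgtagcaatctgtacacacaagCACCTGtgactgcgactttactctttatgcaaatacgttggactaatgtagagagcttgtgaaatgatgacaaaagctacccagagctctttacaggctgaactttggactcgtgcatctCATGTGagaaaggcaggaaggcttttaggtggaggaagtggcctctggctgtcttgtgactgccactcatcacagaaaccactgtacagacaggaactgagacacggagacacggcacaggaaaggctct
Ptgdr: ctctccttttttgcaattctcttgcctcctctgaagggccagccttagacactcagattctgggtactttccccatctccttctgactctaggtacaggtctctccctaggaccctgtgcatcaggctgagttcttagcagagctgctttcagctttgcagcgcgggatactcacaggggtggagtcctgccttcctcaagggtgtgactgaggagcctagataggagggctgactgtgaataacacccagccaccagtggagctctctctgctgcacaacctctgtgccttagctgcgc
The Ptgds window holds 3 E-boxes, starting at bases -154, -129 and -117, and ATAAA from base -29. Hpgds holds 2 E-boxes, at -200 and -80, and Ptgdr holds 0 of either motif. Over the 32851 promoter windows of this length, 72.3% hold CANNTG, 17.6% hold it 3 or more times and 3.89% hold ATAAA in that span. No motif overlaps another in these windows, and a match of letters does not show a bound site.

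The whole Ptgds gene (ENSMUSG00000015090.13) spans chr2:25466709-25470046 on the minus strand of mm10 in GENCODE M21 and overlaps 0 other annotated genes. Within 50 kb, 5 other genes were tested. Their log2 differences ran from -0.08 for the chloride channel gene Clic3 to 0.30 for Fbxw5. Abca2 had 19.7 and 24.8 FPKM in the mutants and 18.5 and 17.6 FPKM in the wild types. None of these neighbours came near the Ptgds difference, and the limma adjusted p was 0.994 or more for each. Of the other synthase genes, Ptgs1 lies at chr2:36230426-36252272 (plus strand), Ptges at chr2:30889471-30929863 (minus) and Ptgis at chr2:167191805-167240604 (minus), on the chromosome of Ptgds but not within 50 kb of it. Ptgs2 lies at chr1:150100031-150108227 (plus) and Hpgds at chr6:65117293-65144908 (minus). The receptor genes lie at chr14:44851235-44859375 (Ptgdr, minus), chr3:157566892-157645888 (Ptger3, plus), chr15:5206661-5244187 (Ptger4, minus) and chr7:16906490-16910905 (Ptgir, plus). Exons of Ptgs1 overlap Gm43621 and those of Ptgis overlap 1110018N20Rik on the opposite strand, and neither of these was among the genes tested.

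Among the other synthases of the set, prostacyclin synthase Ptgis was the most abundant. It had 31.2 FPKM in mutant 1 and 13.8 FPKM in mutant 2, against 33.3 and 31.0 FPKM in the wild types. Mutant 1 lay among the wild types and mutant 2 far below them. Its log2 difference was -0.60 (standard error 0.369), and -0.04 without mutant 2 or -1.16 without mutant 1. Ptges, the inducible microsomal prostaglandin E synthase, had 18.6 and 12.5 FPKM in the mutants, against 20.8 and 16.3 FPKM in the wild types. The groups overlapped, and the log2 difference of -0.26 (standard error 0.235) was 0.01 without mutant 2, -0.53 without mutant 1, -0.42 without wild type 2 and -0.09 without wild type 1.

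Ptgs1, the constitutive cyclooxygenase, had 8.25 and 4.04 FPKM in the mutants, against 10.9 and 7.66 FPKM in the wild types. The groups overlapped. Its log2 difference was -0.57 (standard error 0.330), and -0.14 without mutant 2, -1.01 without mutant 1 and -0.34 without wild type 1. Ptgs2, the inducible cyclooxygenase, was the member of lowest level, at 0.428 and 0.167 FPKM in the mutants, against 1.02 and 0.402 FPKM in the wild types. It did not reach a mean of 1 FPKM in either group, so it was left out of the fit. Its log2 difference was -0.38, and -0.24 without mutant 2, -0.12 without wild type 1 and -0.64 without wild type 2, or -0.997 with 0.1 in place of 1 added to the FPKM. The other 9 genes passed that filter. Ptgs1 exceeded Ptgs2 by 19.3-fold and 24.2-fold in the mutants and 10.7-fold and 19.1-fold in the wild types.

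Each of the 6 synthase genes had its lowest value in mutant 2, where 31.3% of all tested genes had theirs. The 5 synthases besides Ptgds summed to 60.9 and 31.9 FPKM in the mutants, against 68.3 and 58.3 FPKM in the wild types, so that mutant 1 lay within the wild type range. Of the FPKM summed over the 6 synthase genes, Ptgds made up 98.1% and 99.0% in the mutants, against 99.5% and 99.6% in the wild types. The sum leaves out other genes named as synthases, and the shares depend on that choice. Among those left out, Ptges3 had means of 134 FPKM in the mutants and 147 FPKM in the wild types. Fam213b had means of 97.2 FPKM in the mutants and 81.1 FPKM in the wild types. The summed fibroblast markers were also lowest in mutant 2. Their sum was 6279 and 3347 FPKM in the mutants, against 6119 and 4820 FPKM in the wild types, with Dcn at 3710 and 1901 FPKM in the mutants and 3462 and 3347 FPKM in the wild types, and Col1a2 at 769 and 411 FPKM in the mutants and 802 and 426 FPKM in the wild types. Dcn took the largest part of that sum, while Col1a1 and Col3a1 were lowest in wild type 2 and Dpt in mutant 1. Endothelial markers, from cells known for prostacyclin synthesis, summed to 59.0 and 49.4 FPKM in the mutants, against 67.1 and 69.5 FPKM in the wild types, with 2 of 6 (Cdh5 and Flt1) lower without overlap. Mural cell markers summed to 238 and 189 FPKM in the mutants and 193 and 247 FPKM in the wild types. Schwann cell markers ran the other way, with 4 of 6 higher without overlap, and summed to 9882 and 20668 FPKM in the mutants and 10032 and 7920 FPKM in the wild types, highest in mutant 2. The part of these cell types in the synthase values was not tested.

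**Figure D2:**
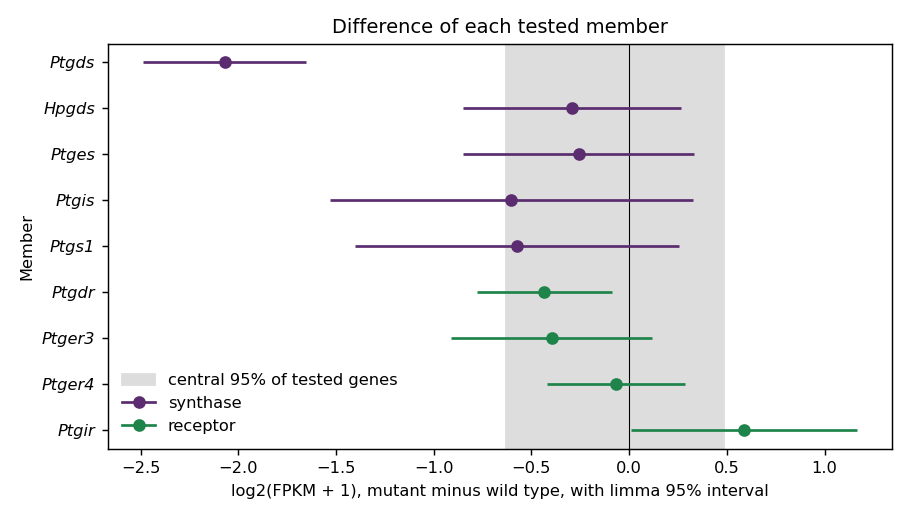
Log2 difference of each tested member, mutant minus wild type, as points with 95% intervals from limma, synthases above receptors. The grey band holds the central 95% of all tested genes (-0.63 to 0.49), and Ptgds at -2.07 lay far outside it.

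Of the 4 receptor genes of the set, Ptgdr had the highest mean in both genotypes, though in mutant 2 Ptgir was above it. Ptgdr encodes the Gs-coupled prostaglandin D receptor DP. It had 6.86 and 6.45 FPKM in the mutants, against 9.24 and 9.43 FPKM in the wild types. The samples of each genotype lay close together and the groups did not overlap, with a log2 difference of -0.43 (standard error 0.138, 95% interval -0.78 to -0.09). Its mean was 6.65 ± 0.287 FPKM in the mutants and 9.33 ± 0.137 FPKM in the wild types (SD, n = 2 each). Ptgds and Ptgdr thus both stood lower, though by unlike amounts, and Ptgds exceeded Ptgdr 467-fold and 469-fold in the mutants against 1418-fold and 1384-fold in the wild types. The transcribed pseudogene Gm16976 overlaps Ptgdr on the opposite strand, and whether the libraries kept strand is not known here, so reads from it cannot be told apart.

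Ptger3 encodes the Gi-coupled prostaglandin E receptor EP3, present in many sensory neurons. It had 2.22 and 3.38 FPKM in the mutants, against 3.63 and 4.29 FPKM in the wild types, with no overlap and a log2 difference of -0.40 (standard error 0.205), which was -0.18 without mutant 1 and -0.62 without mutant 2. Ptger4, for the Gs-coupled receptor EP4, had 3.91 and 4.02 FPKM in the mutants, against 4.20 and 4.19 FPKM in the wild types. This was a difference of -5.55% between the means, and after quantile normalization the groups overlapped. Exons of Ptger4 overlap those of Ttc33 on the opposite strand.

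Ptgir, the Gs-coupled prostacyclin receptor, ran the other way from the rest. It had 4.25 and 6.76 FPKM in the mutants, against 2.95 and 3.56 FPKM in the wild types. The groups did not overlap, and the log2 difference was 0.59 (standard error 0.230, 95% interval 0.01 to 1.16). Without mutant 2 it was 0.31. In the mutants Ptgir ranked 6 among the 10 genes by level, and in the wild types it ranked 8. Summed over the 4 receptors, FPKM were 17.2 and 20.6 in the mutants, against 20.0 and 21.5 in the wild types, and these ranges overlapped. Sensory neuron markers summed to 4994 and 6867 FPKM in the mutants, against 4647 and 5935 FPKM in the wild types, and these sums overlapped between the genotypes.

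By level the genes ran in the wild types from Ptgds through Ptgis, Ptges, Ptgdr, Ptgs1, Ptger4, Ptger3, Ptgir and Hpgds to Ptgs2. Within that order Ptgdr and Ptgs1, and Ptger4 and Ptger3, overlapped in their samples. In the mutants the order was Ptgds, Ptgis, Ptges, Ptgdr, Ptgs1, Ptgir, Ptger4, Ptger3, Hpgds and Ptgs2. There Ptgis and Ptges, Ptgdr and Ptgs1, Ptgs1 and Ptgir, Ptgdr and Ptgir, and Ptger3 and Hpgds overlapped.

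In all, 4 of the 10 genes were lower without overlap between the groups (Ptgds, Ptgdr, Ptger3 and Ptger4), 1 was higher (Ptgir) and 5 overlapped. Over all 14040 tested genes, 19.6% were lower and 12.5% higher without overlap, shares that stand beside the counts of marker and list genes too. Nothing is read from the members' counts, since this contrast helped to choose them. The share of higher genes among those without overlap was 38.9%, and 49.7% after rescaling by median ratios or 51.8% after quantile normalization, but 33.4% after rescaling to an equal FPKM total without Ptgds. With limma, 0 of the 14040 genes, or 0%, passed an adjusted p of 0.05. The smallest adjusted p was 0.175, and 612 genes, or 4.36%, had an unadjusted p under 0.05. The wild types, which differ in Xist and Eif2s3y, cannot be repeats of a single animal's RNA, but the labels do not give the source of each sample, so the p-values cover the spread of these 4 libraries alone, and an exact permutation test of 2 against 2 samples cannot go below 0.333.

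The genes whose profile over the 4 samples was closest to Ptgds were sought among 9765 genes whose mean reached 5 FPKM in a group. Likeness was the Euclidean distance between profiles of log2(FPKM + 1), each centred on its own mean, and its median over these genes was 2.09. The closest was Slc22a6, an organic anion transporter gene, at a distance of 0.303, with 3.62 and 2.94 FPKM in the mutants against 17.2 and 13.3 FPKM in the wild types. Next came Fgfbp1, a carrier of fibroblast growth factors, at 0.310, with 10.0 and 12.7 FPKM in the mutants against 56.4 and 54.6 FPKM in the wild types. Nnat, which encodes a small membrane proteolipid, followed at 0.328, with 65.2 and 69.9 FPKM in the mutants against 252 and 222 FPKM in the wild types. Atp13a5 (0.340), the asialoglycoprotein receptor gene Asgr1 (0.357), Dapl1 (0.367), the amino acid transporter gene Slc6a20a (0.406) and Prdm12 itself (0.415) completed the 8. Each of the 8 was lower in both mutants, which the choice by likeness fixes. All 8 were in the authors' deposited table, which was cut by fold change. Of the 150 genes the authors' deposited table holds, 129 were lower in the mutants.

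**Figure D3:**
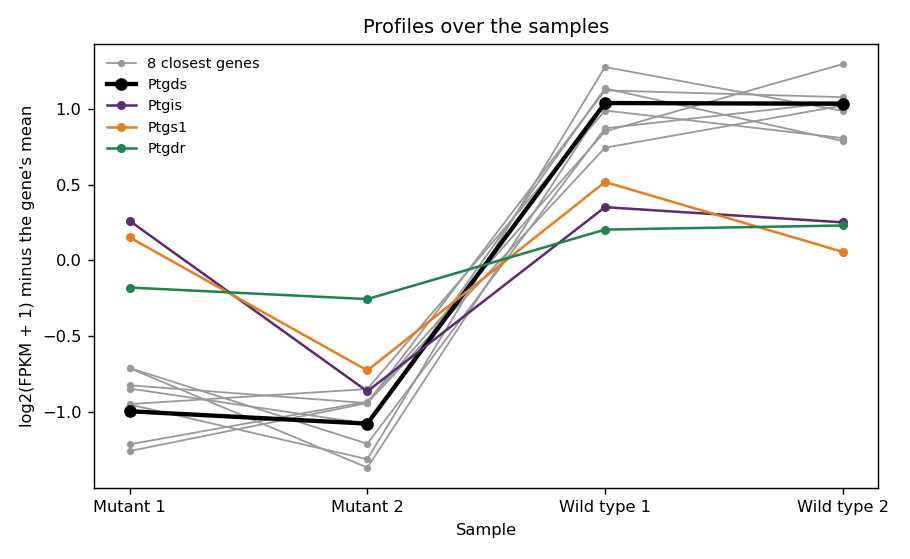
Log2(FPKM + 1) minus the gene's own mean in each sample, for Ptgds, its 8 closest genes, Ptgis, Ptgs1 and Ptgdr. Ptgds and its closest genes separate the genotypes, Ptgis and Ptgs1 are lowest in mutant 2, and Ptgdr is lower in both mutants by a smaller amount.

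Markers of the leptomeninges and arachnoid, tissue in which Ptgds is known to be abundant, were lower together with Ptgds. Of 17 tested markers, 14 were lower and 0 higher without overlap, and 0 passed the limma adjusted threshold. Over all tested genes, 19.6% were lower and 12.5% higher without overlap. The markers had a median log2 difference of -1.28, against -0.00 over all genes. They were chosen with earlier results of these data known. Their summed level was 663 and 414 FPKM in the mutants, against 1538 and 1194 FPKM in the wild types, with Igf2 at 121 and 89.9 FPKM in the mutants and 357 and 248 FPKM in the wild types, and the tight junction gene Cldn11 at 148 and 51.2 FPKM in the mutants and 239 and 188 FPKM in the wild types. The markers Slc22a6 and Nnat were also among the closest profiles, which rests on the same values. Of the 17, 0 had a log2 difference below that of Ptgds. Ptgds divided by the summed markers was 4.83 and 7.31 in the mutants, against 8.51 and 10.9 in the wild types. General fibroblast markers overlapped between the groups in 8 of 8 genes. The 4 measured choroid plexus markers summed to 26.8 and 17.7 FPKM in the mutants and 51.9 and 40.4 FPKM in the wild types, with 3 lower without overlap. These were Kcnj13, Ttr and Kl, while the defining marker Ttr was at most 7.57 FPKM in any sample. Of the oligodendrocyte and spinal cord markers, another known source of Ptgds, Mog, Opalin, Olig2, Mobp, Slc1a2 and Hapln2 were not listed in the matrix. The other 3 (Sox10, Gfap and Aqp4), which glia of the ganglion can also express, summed to 37.7 and 59.1 FPKM in the mutants and 37.7 and 35.4 FPKM in the wild types. The part of leptomeningeal cells in the Ptgds difference was not tested.

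**Figure D4:**
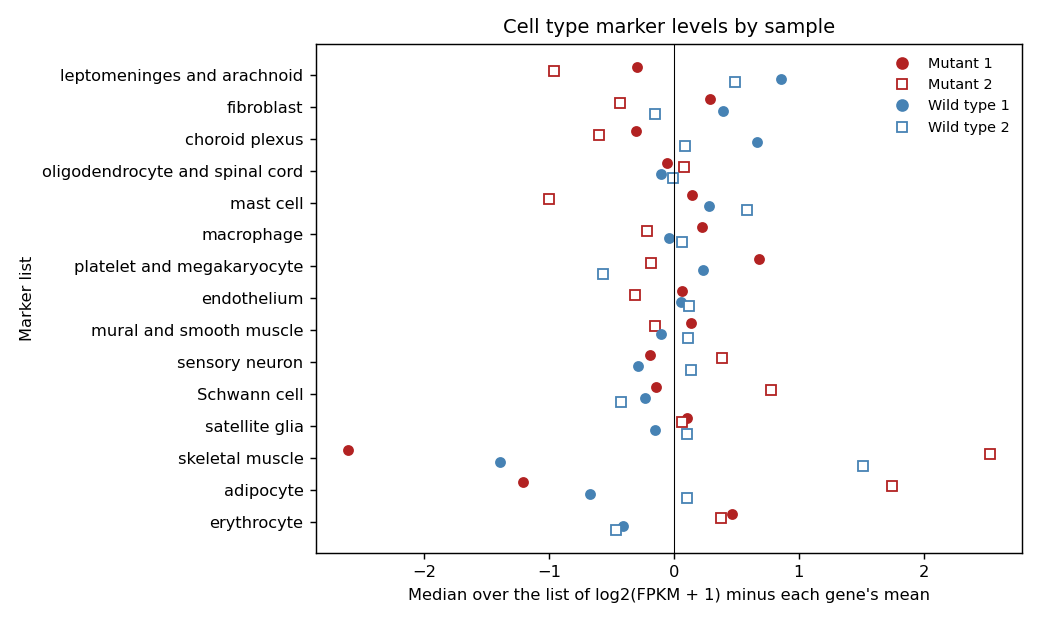
Median over each marker list of log2(FPKM + 1) minus each gene's own mean, by sample, mutants drawn above wild types within a list. Leptomeningeal markers are lower in both mutants, the medians of mast cell and fibroblast markers are lowest in mutant 2, and muscle and adipocyte markers vary most within a genotype.

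Macrophage markers, from cells known to express Ptgs1 and Hpgds, summed to 460 and 338 FPKM in the mutants, against 376 and 406 FPKM in the wild types, and 7 of 8 overlapped. Platelet and megakaryocyte markers, from cells rich in Ptgs1, summed to 173 and 83.5 FPKM in the mutants and 133 and 70.6 FPKM in the wild types. Erythrocyte markers were higher in both mutants for 6 of 6 measured genes, at a sum of 6387 and 6514 FPKM in the mutants and 3406 and 3199 FPKM in the wild types. Satellite glia markers summed to 5588 and 5788 FPKM in the mutants and 5434 and 6618 FPKM in the wild types.

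The other genes of the prostanoid pathway had log2 differences between -0.66 and 0.96, against -2.07 for Ptgds. Of the other enzymes, 21 were tested, 2 were higher and 2 lower without overlap, 0 passed the limma adjusted threshold, and the median log2 difference was -0.05. The 3 most abundant were Ptges3, a co-chaperone also named as a prostaglandin E synthase, Pla2g7, the platelet-activating factor acetylhydrolase, and Fam213b, a prostamide and prostaglandin F synthase. Ptges3 had 135 and 133 FPKM in the mutants and 151 and 143 FPKM in the wild types, with a log2 difference of -0.13. Pla2g7 was at -0.05 and Fam213b at 0.25 on the same scale. The largest differences without overlap were those of the phospholipase genes Pla2g16 (0.38) and Pla2g6 (0.25). Pla2g16 had 56.7 and 74.5 FPKM in the mutants and 50.6 and 48.5 FPKM in the wild types. All of these had a limma adjusted p of 0.994. Pla2g4a, the cytosolic phospholipase that frees arachidonic acid, is named outside the rule and had 6.91 and 5.46 FPKM in the mutants and 8.80 and 6.19 FPKM in the wild types.

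Of the other receptor and transport genes, 7 were tested, 1 was higher and 2 lower without overlap, and the median log2 difference was -0.14. Tbxa2r, the thromboxane receptor gene, had 10.0 and 14.3 FPKM in the mutants and 9.22 and 6.85 FPKM in the wild types, a log2 difference of 0.54 (limma adjusted p = 0.994). Ptger1, for the receptor EP1, had 12.1 and 11.5 FPKM in the mutants and 10.7 and 11.7 FPKM in the wild types. In each sample it was above Ptgdr, Ptger3, Ptger4 and Ptgir. The prostaglandin F receptor gene Ptgfr was at -0.15 and its regulator Ptgfrn at -0.35. Slco2a1, the prostaglandin transporter gene, is named outside the rule for its low value in mutant 2, with 8.88 and 2.37 FPKM in the mutants and 9.44 and 6.96 FPKM in the wild types. Together these lists had 28 tested genes, of which 4 were lower and 3 higher without overlap, beside the background of 19.6% and 12.5%.

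The leukotriene branch, which uses the same arachidonic acid, had 12 tested genes, of which 1 was lower and 0 higher without overlap. That gene was the epoxide hydrolase gene Ephx1, with 91.4 and 80.5 FPKM in the mutants and 127 and 108 FPKM in the wild types (log2 difference -0.45, limma adjusted p = 0.994). Alox5ap had a log2 difference of 0.12 and Lta4h of -0.00. The list had a median of 0.15. Of 29 tested genes for signalling and channels on which prostanoid receptors act in nociceptors, 4 were higher and 6 lower without overlap, with a median of 0.10. Gnas, which encodes the stimulatory G protein subunit, was at 1227 and 1560 FPKM in the mutants and 1170 and 1374 FPKM in the wild types. Prkar1a (-0.08) and Gnai2 (0.10) were the next most abundant. Adcy5, an adenylyl cyclase gene, had 9.08 and 8.25 FPKM in the mutants and 14.7 and 12.5 FPKM in the wild types (log2 difference -0.59, limma adjusted p = 0.790), and Creb1 was at -0.29.

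Ptgds belongs to the lipocalins, and of 12 tested lipocalin and lipid-binding genes 4 were lower and 1 higher without overlap, with a median log2 difference of 0.09. The lower genes included Apod, which encodes a glial lipocalin, and the retinoid carriers Rbp4 and Crabp2. Apod had 5043 and 3715 FPKM in the mutants and 5331 and 5980 FPKM in the wild types (-0.38). Rbp4, the serum retinol-binding lipocalin, is named outside the rule and had 51.8 and 53.5 FPKM in the mutants and 120 and 125 FPKM in the wild types, a log2 difference of -1.21 (limma adjusted p = 0.235). Crabp2 was at -1.34 (limma adjusted p = 0.892). The authors' deposited table lists Rbp4 and Crabp2 with q = 0.00742 each. That is the smallest q it holds, shared by 103 of its 150 genes. Crabp2 is also in the leptomeningeal list above. Lcn2, which encodes neutrophil gelatinase-associated lipocalin, was the higher gene, with 125 and 129 FPKM in the mutants and 66.2 and 117 FPKM in the wild types. The fatty acid binding genes Fabp7 (0.07) and Fabp4 (0.38) overlapped between the groups.

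**Figure D5:**
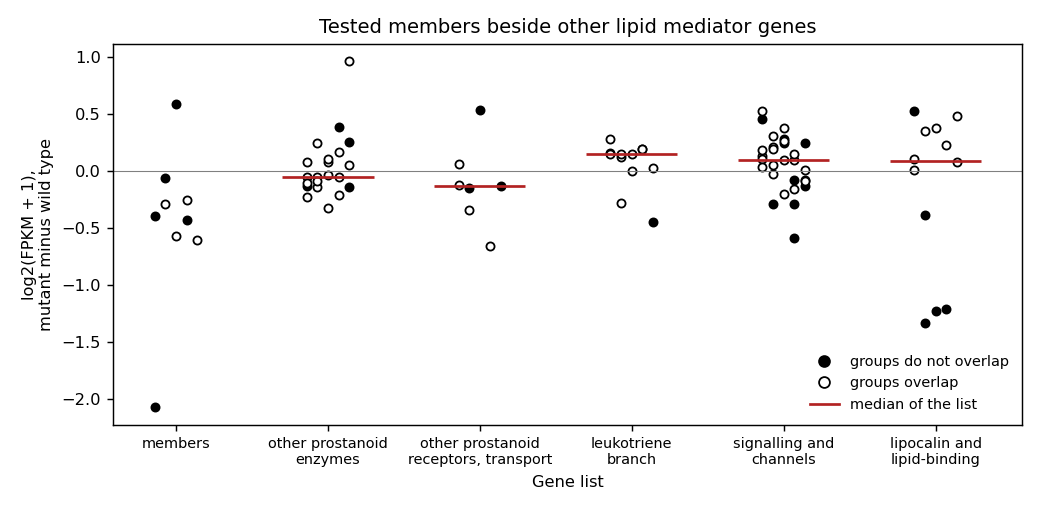
Log2 difference, mutant minus wild type, of each tested gene, for the members and the 5 other lists. Filled points mark genes whose groups do not overlap and red lines the medians of the other lists; the point below -2 is Ptgds, and the points below -1 among the lipid-binding genes include Crabp2 and Rbp4.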

How the data were processed

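Per the file headers, the authors deposited FPKM values for 14405 genes in 2 mutant and 2 wild type samples, and a table of 150 genes with group FPKM, a log2 fold change, a test score, p-values and q-values in Cuffdiff's format. The build was mm10 and the tools were Cufflinks 2.2.1, TopHat2 2.1.2 and CASAVA, per the submitters' processing notes. Their roles, their settings, strandedness and read depth are not known here, so no counting interval is given.

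From the FPKM, limma 3.58.1 in R 4.3.3 was fitted to log2(FPKM + 1) for the 14040 genes whose mean reached 1 FPKM in a group, with a variance prior following mean expression (2 residual and 3.44 prior degrees of freedom) and Benjamini-Hochberg adjustment over all of them. This scale understates the difference of low genes. The step was tested on simulated data. Members and lists were chosen with earlier results of these data known. From each pathway list, the text names the 3 genes of highest mean and up to 2 of the largest difference without overlap at 5 FPKM or more, from each marker list the 2 of highest mean where values are given, and others as said. Gene loci are from GENCODE M21 on GRCm38, the assembly of mm10. Promoters were given for 9 of 10 members. Some genes that this rule takes are not reported here.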

Additional observations from a re-analysis of the deposited data

How the results depend on the processing

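Ptgds kept its negative log2 difference in each alternative run. It was -1.71 after quantile normalization, which by its construction sets the top gene of each sample to the same value, and -2.12 after rescaling to an equal FPKM total without Ptgds. With 1 sample left out it ran from -2.11 to -2.03. Of the other synthases, 4 lay between -0.14 and 0.01 without mutant 2, when Ptgis had a log2 difference of -0.04, Hpgds of -0.05, Ptgs1 of -0.14 and Ptges of 0.01, against -0.60, -0.29, -0.57 and -0.26 with all samples. Ptgs2, at -0.38, was at -0.12 without wild type 1, at -0.24 without mutant 2 and at -0.997 with a pseudocount of 0.1. The cause was not tested. The median log2 difference of the other prostanoid pathway genes, -0.05 with all samples, was -0.10 after rescaling without Ptgds, and ran from -0.0896 without mutant 2 to 0.0216 without wild type 2 (0.0206 without mutant 1).

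The count of genes past the adjusted threshold (limma, 0 with all samples and no block) was 61 with the replicate number as a block, or 0.434% of the tested genes. Of the 61, 1 was a member (Ptgds) and 2 were from the pathway lists (Crabp2 and Rbp4). Members and lists were chosen with earlier results of these data known, so nothing is read from these counts. The labels do not say that the replicate number pairs samples. The differences between samples 1 and 2 correlated between the genotypes at r = 0.481 over genes, which are not independent replicates. Genes without overlap numbered 1753 higher and 2751 lower. With a mean of at least 5 FPKM there were 1140 higher and 1885 lower. With 1 sample left out there were 3129 to 5725 higher and 4593 to 5218 lower, since fewer samples must then agree. Read depth is unknown, so precision at low FPKM, such as that of Ptgs2, cannot be given.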
